A study of Homo sapiens with 8 samples.

Results

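The immediate early transcription factors described here are 10 genes chosen by name: EGR1, EGR2 and EGR3, FOS, FOSB and FOSL1, JUN and JUNB, and IER2 and IER3. They are 10 of the 31721 genes in the deposited table of FPKM (fragment counts scaled for exon length and library size), and each of the 10 was found there by its Ensembl identifier. The choice of these 10 was made with earlier results of these data known. The cells were A2780, an established human ovarian carcinoma line. They were treated for 24 hours with the solvent DMSO, with olaparib, an inhibitor of the DNA repair enzymes PARP1 and PARP2, with palbociclib, an inhibitor of the cell cycle kinases CDK4 and CDK6, or with both drugs. There were 2 libraries of polyadenylated RNA in each of the 4 groups, given in the labels as biological repeats. The sources used here give no dose and do not say whether the repeats were separate cultures, so the p-values measure the spread between these libraries, which may be technical. All 4 groups are the same single cell line, with no other genotype.

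Immediate early genes are transcribed within minutes of a stimulus such as a growth factor, from promoters already occupied by factors such as SRF with ETS proteins and CREB, and without the need for new protein synthesis. EGR1, EGR2 and EGR3 are zinc finger factors that bind GC-rich sites. FOS, FOSB and FOSL1 dimerise with JUN, JUNB or JUND to form AP-1, which binds the TGANTCA site, where N is any base. IER2 is a nuclear regulator with a short-lived transcript, and IER3 is a regulator of survival and ERK signalling that does not bind DNA by itself, so the name transcription factor fits it least.

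The promoters are shown because SRF and CREB sites are the textbook entry points to these genes. RefSeq windows on GRCh38.p14 were used for 7 of the 10 genes, and no window of EGR3, FOSL1 or IER3 was searched. The 150 bases before the annotated start follow, 5′ to 3′ on the gene's strand, with capitals marking a CArG box (the SRF site), TGACG or its reverse complement CGTCA (the core of the CREB site), and TATAAA. For EGR2, which has 3 annotated windows, the window with a CArG box is shown.
EGR1: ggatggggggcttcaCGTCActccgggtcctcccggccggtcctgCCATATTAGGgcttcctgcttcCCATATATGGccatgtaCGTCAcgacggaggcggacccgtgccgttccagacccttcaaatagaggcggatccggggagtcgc
EGR2: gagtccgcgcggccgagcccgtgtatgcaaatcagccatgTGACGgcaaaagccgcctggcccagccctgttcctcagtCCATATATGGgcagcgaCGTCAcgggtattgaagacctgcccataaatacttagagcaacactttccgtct
FOS: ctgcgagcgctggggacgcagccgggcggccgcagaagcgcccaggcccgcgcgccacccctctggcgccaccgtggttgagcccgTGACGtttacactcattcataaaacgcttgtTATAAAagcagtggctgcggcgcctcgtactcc
FOSB: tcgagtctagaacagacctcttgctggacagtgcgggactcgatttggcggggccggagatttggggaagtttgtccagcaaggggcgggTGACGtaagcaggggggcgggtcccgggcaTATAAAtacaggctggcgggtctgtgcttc
JUNB: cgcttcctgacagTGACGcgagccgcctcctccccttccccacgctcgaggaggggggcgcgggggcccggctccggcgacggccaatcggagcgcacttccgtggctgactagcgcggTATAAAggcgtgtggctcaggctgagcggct
IER2: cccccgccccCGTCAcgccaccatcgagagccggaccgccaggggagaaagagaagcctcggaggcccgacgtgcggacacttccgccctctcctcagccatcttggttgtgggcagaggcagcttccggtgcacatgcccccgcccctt
JUN: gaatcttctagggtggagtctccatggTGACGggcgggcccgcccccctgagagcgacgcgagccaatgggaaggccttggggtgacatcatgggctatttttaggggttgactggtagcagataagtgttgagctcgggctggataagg
The windows lie at chr5:138465329-138465478 on the plus strand for EGR1, chr10:62816367-62816516 on the minus strand for EGR2 and chr14:75278678-75278827 on the plus strand for FOS. Those of FOSB, JUNB and IER2 lie at chr19:45467846-45467995, chr19:12791336-12791485 and chr19:13150261-13150410, each on the plus strand, and that of JUN at chr1:58784048-58784197 on the minus strand.

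Motifs were searched on both strands from 250 bases before to 50 bases after each start. A CArG box occurred in 2 of the 7 genes searched, EGR1 and EGR2. Sites more than 250 bases before a start were not searched, so the other 5 may have a CArG box there. EGR1 held it at −105 to −96 (CCATATTAGG) and at −83 to −74 (CCATATATGG), and EGR2 at −71 to −62. A gene counted where any of its windows held the motif, and over all 27305 genes with a RefSeq window of this length 1.60% had a CArG box. TGACG occurred in 7 of the 7 genes and in 28.4% of all genes, whereas the full TGACGTCA, which contains TGACG on both strands, occurred in 0 of the 7 and in 2.25% of all genes. The AP-1 site TGANTCA occurred in 0 of the 7 and in 9.37% of all genes, and the EGR site GCGNGGGCG in EGR1 and EGR2 and in 11.2% of all genes. The EGR1 match lay at −198 to −190, before the bases shown. The EGR2 match lay at 9 to 17 after the start of a different EGR2 window, which is not shown and holds no CArG box. Over all 35116 windows the shares were 1.29% for the CArG box, 24.6% for TGACG, 1.85% for TGACGTCA, 7.71% for TGANTCA and 9.43% for GCGNGGGCG. TATAAA stood in FOS, FOSB and JUNB, with its first base at −33, −30 and −31, against 14.0% of all genes and 11.5% of all windows. Only exact matches were counted, so variants of a site, such as tgacatca in the JUN window, were not. These matches describe letters in these windows and do not show that a factor binds there.

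Reads behind the FPKM values could be recovered as whole numbers, and the recovered reads summed over genes to 20566158 to 34057055 per library. For 3086 genes the smallest exon length that gave whole reads was taken, so their true reads may be higher. These genes are part of the sums and of the fits on recovered reads. Replicate libraries were not copies of each other: divided by its degrees of freedom, chi-square between the libraries of 1 group ran from 2.67 for DMSO to 4.84 for the combination. The labels describe an epithelial ovarian carcinoma, but 0 of the 6 epithelial markers found in the table reached a mean of 1 FPKM, and the 3 ovarian carcinoma markers found summed to at most 0.0560 FPKM. Summed epithelial markers were 0.818 to 0.884 FPKM with DMSO, 1.13 to 1.25 under olaparib, 1.73 to 1.86 under palbociclib and 1.85 to 2.17 under the combination. The 5 fibroblast markers, led by LUM at up to 49.1 FPKM, summed to 62.8 to 64.7 FPKM with DMSO, 58.1 to 61.3 under olaparib, 68.1 to 73.7 under palbociclib and 68.6 to 70.0 under the combination. For both marker sums the 4 libraries with palbociclib lay above the other 4, the same split as for the rises below, and the part of these markers in the results was not tested. Immune markers summed to at most 0.618 FPKM and endothelial markers to at most 0.0169 FPKM.

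With palbociclib, EGR1, EGR3, FOS, FOSB and JUNB rose, by 1.67-fold for JUNB to 4.70-fold for EGR1 in mean FPKM. IER2 and IER3 did not pass the test, and EGR2, FOSL1 and JUN were below the mean of 1 FPKM that the test required. The first 5 genes also rose with the combination, and with olaparib alone none of the 10 was called higher. Over all tested genes, 18.7% were called higher with palbociclib, 21.5% with the combination and 4.13% with olaparib. In RNA from whole cultures, a change in the share of cells expressing a gene and a change in RNA per cell cannot be told apart. Values were compared in limma on log2(FPKM + 1), which understates changes of weakly expressed genes, and p-values were adjusted over all 12443 tested genes.

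**Figure D1:**
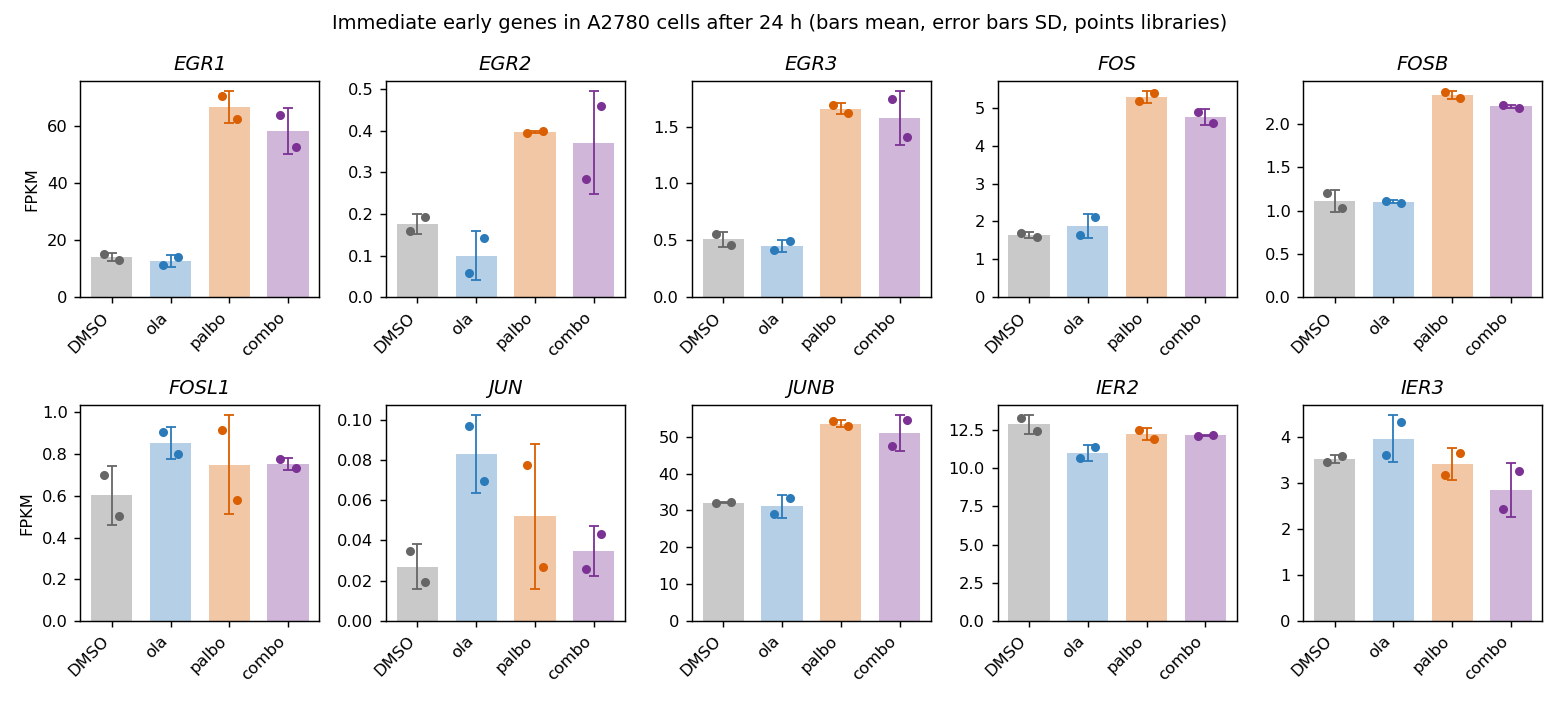
FPKM of each of the 10 genes (vertical axis, separate scale per panel) in the 4 groups; points are the 2 libraries, bars the mean and error bars the SD. EGR1 stands at 52.4 to 70.4 FPKM in the 4 libraries with palbociclib and at 11.2 to 15.1 FPKM in the other 4, while IER2 stays between 10.6 and 13.3 FPKM.

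EGR1 (ENSG00000120738, chr5:138465490-138469315, plus strand, GRCh38) stood at 15.1 and 13.2 FPKM in the DMSO libraries and at 11.2 and 14.3 with olaparib. It stood at 70.4 and 62.4 FPKM with palbociclib and at 63.7 and 52.4 with the combination. All 4 libraries that received palbociclib, alone or in the combination, were above all 4 that did not. How many of all genes have libraries that separate between groups was not counted, here or for the other genes, so such splits only describe the values. The log2 fold change was 2.16 ± 0.14 (SE, adjusted p = 6.07e-05) with palbociclib against DMSO and 1.96 ± 0.14 (adjusted p = 3.96e-05) with the combination against DMSO. These 2 comparisons share the DMSO libraries, as does that of olaparib, so they are not independent of each other. Among the 12443 tested genes, EGR1 had the third highest log2 fold change with palbociclib, at rank 3, and the highest with the combination, at rank 1. Against olaparib alone, the combination was higher by 2.11 ± 0.14 (adjusted p = 8.84e-05), again at rank 1. With olaparib against DMSO the value was −0.15 ± 0.14 (adjusted p = 0.501), with overlapping libraries.

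EGR3 (ENSG00000179388, chr8:22687659-22693302, minus strand), a relative of EGR1 that binds the same kind of site, had 0.558 and 0.460 FPKM with DMSO and 0.414 and 0.491 under olaparib. With palbociclib it had 1.69 and 1.62 FPKM, and with the combination 1.74 and 1.41. Again the libraries with palbociclib did not overlap the others. The log2 fold change was 0.82 ± 0.10 (adjusted p = 0.000758) with palbociclib and 0.77 ± 0.10 (adjusted p = 0.000708) with the combination, while the ratio of mean FPKM was 3.25 and 3.09. Its mean was 0.509 FPKM with DMSO, so EGR3 passed the filter on low values through the groups in which it was high. Without that filter it was also called. The EGR3 exons share 164 bases, 3.38% of their length, with the antisense gene AC055854.1, which was not found among the deposited genes.

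EGR2 (ENSG00000122877, chr10:62811996-62919900, minus strand), the member of the family best known from myelinating and immune cells, was measured from few reads. It had 19 and 21 reads with DMSO, 5 and 15 under olaparib, 32 and 47 under palbociclib and 23 and 44 under the combination. In FPKM this was 0.158 and 0.193, 0.0579 and 0.143, 0.395 and 0.399, and 0.285 and 0.459. The palbociclib and combination libraries were all above the DMSO libraries, with ratios of means of 2.26 and 2.12. Its call depended on the method. On log2(FPKM + 1) with no filter on low values, the palbociclib difference was 0.25 ± 0.08 (adjusted p = 0.0893). On the recovered reads with limma-voom and no filter, a fit chosen after seeing the data, it was 1.17 ± 0.35 (adjusted p = 0.0155), with 1.07 ± 0.36 (adjusted p = 0.0304) for the combination. Against olaparib, the combination was higher by 0.32 on log2(FPKM + 1) with no filter (adjusted p = 0.0492), and at a filter of 0.1 FPKM the adjusted p was 0.0508.

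FOS (ENSG00000170345, chr14:75278774-75282230, plus strand) is the founding partner of JUN proteins in AP-1. It had 1.70 and 1.58 FPKM with DMSO, 1.65 and 2.11 under olaparib, 5.16 and 5.38 under palbociclib and 4.90 and 4.61 under the combination. The 4 libraries with palbociclib were all above the other 4. FOS rose by 1.25 ± 0.08 on the log2 scale (adjusted p = 6.76e-05) with palbociclib, a ratio of means of 3.22, and by 1.12 ± 0.08 (adjusted p = 5.2e-05) with the combination, a ratio of 2.90. By log2 fold change with palbociclib it was at rank 39 of the 12443 tested genes.

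FOSB (ENSG00000125740, chr19:45467995-45475179, plus strand) is a close relative of FOS. Its levels were 1.20 and 1.02 FPKM with DMSO and 1.12 and 1.09 under olaparib, and they were 2.36 and 2.30 under palbociclib and 2.21 and 2.19 under the combination. The groups with and without palbociclib did not overlap. FOSB rose by 0.66 ± 0.07 (log2, adjusted p = 0.000441) with palbociclib and by 0.60 ± 0.07 (adjusted p = 0.000461) with the combination, with ratios of means of 2.10 and 1.98. FOSB lies within ERCC1 on the opposite strand, with no shared exonic base. ERCC1 itself had a log2 fold change of 0.46 ± 0.07 with palbociclib (adjusted p = 0.00149).

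FOSL1 (ENSG00000175592, chr11:65892049-65900573, minus strand), which encodes FRA1, was weakly expressed. It had 0.701 and 0.502 FPKM with DMSO, 0.906 and 0.799 under olaparib, 0.917 and 0.582 under palbociclib and 0.775 and 0.734 under the combination. The olaparib and combination libraries lay above the DMSO libraries and the palbociclib libraries overlapped them, from 28 to 43 reads per library. No comparison of FOSL1 with DMSO passed in the same limma-voom fit, at log2 differences of 0.50 for olaparib (adjusted p = 0.399), 0.24 for palbociclib (adjusted p = 0.654) and 0.33 for the combination (adjusted p = 0.484).

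The make-up of each family is given as mean shares of summed FPKM, without a test. FOSL2, which is not among the 10 genes, held 46.1% of the summed Fos family FPKM with DMSO and FOS held 26.4%. With palbociclib FOS held 46.8% and FOSL2 25.9%. The family sum was 6.21 ± 0.48 FPKM (SD, n = 2) with DMSO, 6.75 ± 0.48 under olaparib, 11.3 ± 0.47 under palbociclib and 10.5 ± 0.017 under the combination. FOSL2 stood at 2.95 and 2.77 FPKM with DMSO and at 3.16 and 2.68 with palbociclib, a log2 difference of 0.020 ± 0.09 (adjusted p = 0.866). Within the EGR family EGR1 held 94.7% of summed FPKM with DMSO and 96.6% under palbociclib.

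JUNB (ENSG00000171223, chr19:12791496-12793315, plus strand, a single exon), a Jun protein of AP-1, was the most abundant of the 10 genes without palbociclib. It had 32.1 and 32.2 FPKM with DMSO, 28.9 and 33.2 under olaparib, 54.2 and 53.0 under palbociclib and 47.5 and 54.4 under the combination. The libraries with palbociclib were all above those without it. JUNB rose by 0.72 ± 0.08 (log2, adjusted p = 0.000409) with palbociclib and by 0.65 ± 0.08 (adjusted p = 0.000453) with the combination, ratios of means of 1.67 and 1.59. Its exon shares 259 bases, 14.2% of its length, with HOOK2 on the opposite strand. The sources used here do not state whether counting separated the strands. HOOK2 stood at 2.28 and 2.62 FPKM with DMSO and at 2.98 and 3.37 under palbociclib, which is far below JUNB, and its palbociclib difference was 0.27 ± 0.08 (log2, adjusted p = 0.0261).

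JUN (ENSG00000177606, chr1:58780788-58784327, minus strand, a single exon), the classical partner of FOS, was close to the detection limit. It had 4 and 2 reads with DMSO, 8 and 7 under olaparib, 6 and 3 under palbociclib and 2 and 4 under the combination. The olaparib libraries lay above the DMSO libraries and the others overlapped them. The olaparib difference did not pass, at 1.48 ± 0.68 (log2, adjusted p = 0.241) on recovered reads with limma-voom and no filter. That fit was chosen after seeing the data, and the smallest difference detectable at this depth was not tested. JUN held 0.0264% of summed Jun family FPKM with DMSO, JUNB 31.5% and JUND 68.4%. The JUNB share was 37.8% with palbociclib and 40.5% with the combination. JUND, with 70.2 and 69.3 FPKM in the DMSO libraries and 85.9 and 90.0 with palbociclib, rose by 0.33 ± 0.11 (log2, adjusted p = 0.0483). That call was lost without DMSO 1, DMSO 2, palbociclib 1 or palbociclib 2, at 0.34, 0.32, 0.36 and 0.30. It was also lost with no filter (adjusted p = 0.153), at a filter of 0.1 FPKM (adjusted p = 0.0945) and without trend (adjusted p = 0.0638). The value was 0.54 with quantile normalisation (adjusted p = 0.00315).

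**Figure D2:**
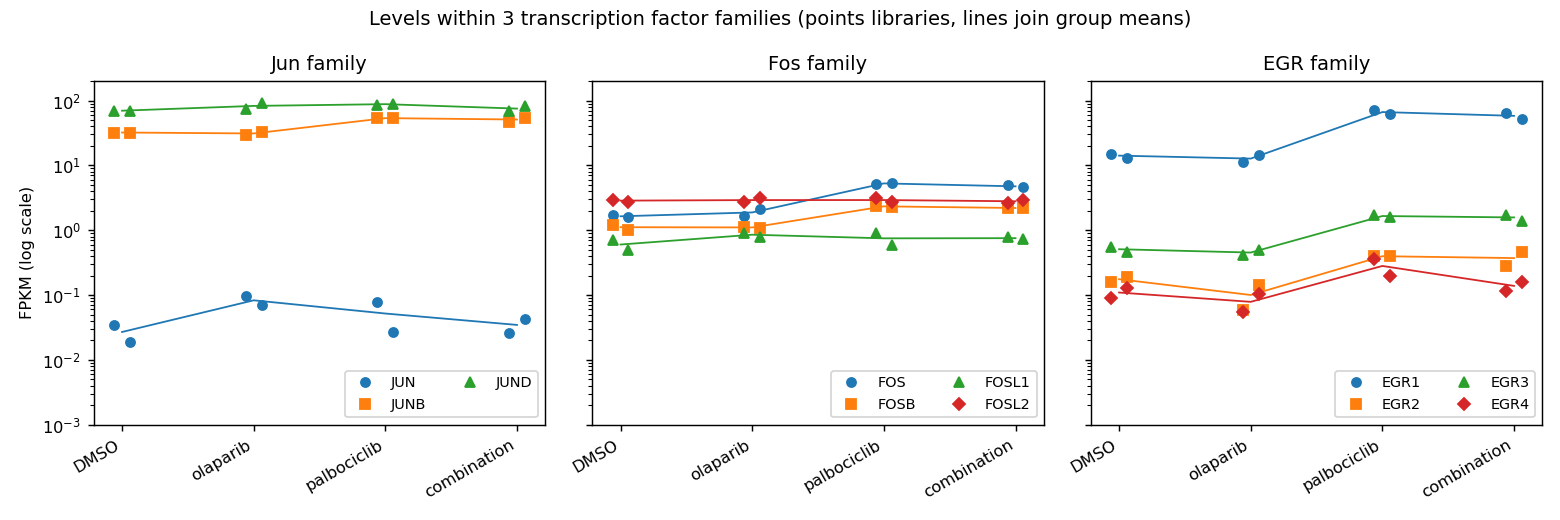
FPKM on a log scale for all members of the EGR, Fos and Jun families in the 4 groups; points are libraries and lines join group means. FOS passes FOSL2 between DMSO (1.64 against 2.86 FPKM) and palbociclib (5.27 against 2.92 FPKM), and JUN lies below 0.1 FPKM in every library.

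IER2 (ENSG00000160888, chr19:13150415-13154908, plus strand) is induced with FOS and JUN in textbook serum responses. It had 13.3 and 12.4 FPKM with DMSO, 10.6 and 11.4 under olaparib, 12.5 and 11.9 under palbociclib and 12.1 and 12.2 under the combination. The palbociclib libraries overlapped the DMSO libraries, and the olaparib and combination libraries lay below them. The palbociclib difference was −0.068 ± 0.05 (log2, adjusted p = 0.293), which turned to 0.021 with quantile normalisation and 0.029 with TPM scaling. The combination difference was −0.077 ± 0.05 (adjusted p = 0.225), which turned to 0.045 and 0.056 under these scalings. IER2 fell with olaparib by 0.21 ± 0.05 (log2, adjusted p = 0.0378). This call was fragile: it held in 5 of 18 alternative settings. It was lost without DMSO 1 at −0.16, DMSO 2 at −0.25, olaparib 1 at −0.16, olaparib 2 at −0.25, palbociclib 1 at −0.21 and palbociclib 2 at −0.21, and at −0.16 with quantile normalisation or with TPM scaling. IER2 shares 946 exonic bases, 30.8% of its own, with the antisense gene AC011446.2, so part of its reads may belong to that gene. AC011446.2 was not found among the deposited genes, so its level is not known here.

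IER3 (ENSG00000137331, chr6:30743199-30744554, minus strand) had 3.45 and 3.57 FPKM with DMSO, 3.59 and 4.32 under olaparib, 3.16 and 3.65 under palbociclib and 2.43 and 3.26 under the combination. The palbociclib libraries overlapped the DMSO libraries, with a difference of −0.036 ± 0.12 (log2, adjusted p = 0.825) that turned to 0.052 with TPM scaling. The combination libraries lay below the DMSO libraries, at −0.24 ± 0.12 (adjusted p = 0.128). Without combination 2 this passed, at −0.40 (adjusted p = 0.0257). Against olaparib, IER3 was lower with the combination by −0.37 ± 0.12 (log2, adjusted p = 0.0408), a call that held in 7 of 18 alternative settings. It was lost without DMSO 1 or 2 or palbociclib 1 or 2 at −0.37 each, without olaparib 2 at −0.27 and without combination 1 at −0.21. The IER3 exons share 359 bases with the antisense IER3-AS1, which had 0 to 3 reads per library.

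Counted over the 10 genes, 5 of 7 tested were called higher with palbociclib against DMSO and none lower, while 18.7% of all tested genes were called higher and 31.4% lower. The 10 genes were chosen with earlier results of these data known. The counts in this paragraph may therefore partly restate that choice, and they carry no test. Because EGR3 entered through its high groups, the count was repeated with no filter, when all 10 could be tested. Then 5 of 10 were called higher and 0 lower with palbociclib, where 6.63% of all 31721 genes were called higher and 10.5% lower. Of these 31721 genes, 19278 had a mean under 1 FPKM, where log2(FPKM + 1) understates changes. Among the 10 only EGR2, FOSL1 and JUN were that low, so shares with no filter, here and below, come from a more weakly expressed set. With the combination they were 5 higher and 0 lower of 10, against 8.64% and 12.5%, and for the combination against olaparib, where EGR2 also passed, 6 higher and 0 lower, against 5.56% and 8.74%. With the filter, the combination against DMSO gave 5 of 7 higher, where 21.5% of all tested genes were called higher and 35.3% lower. The combination against olaparib gave 5 of 7 higher and 1 lower, where the shares of all tested genes were 17.0% and 27.4%. Olaparib against DMSO gave 0 higher and 1 lower of 7, with 4.13% and 10.5% over all tested genes. Rescaling to TPM moved the median log2 fold change of all genes with the combination by 0.12, and the calls of EGR1, EGR3, FOS, FOSB and JUNB with palbociclib and the combination held in 18 of 18 alternative settings.

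**Figure D3:**
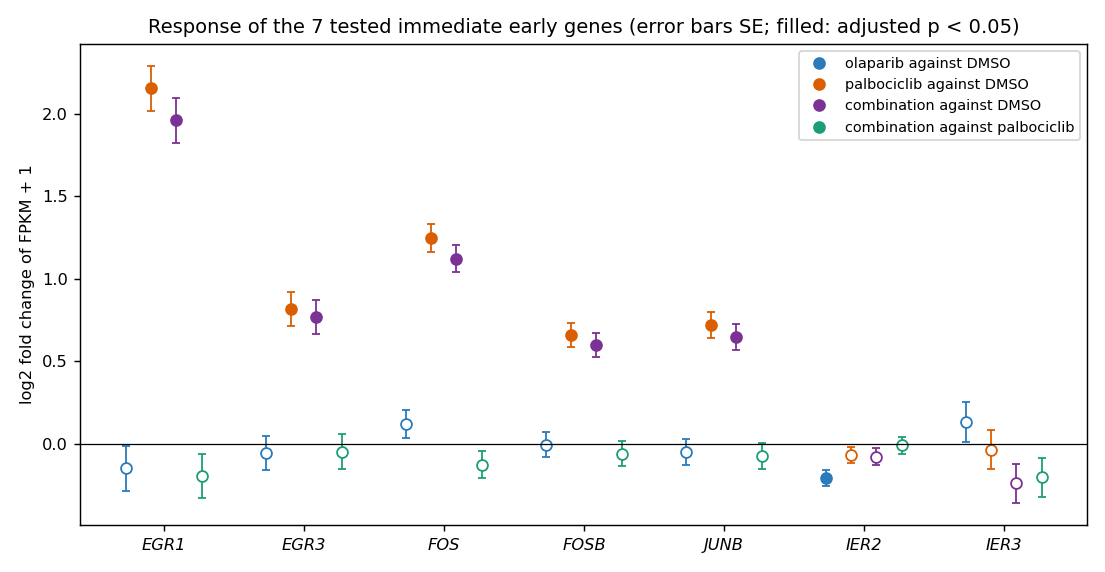
Log2 fold change of FPKM + 1 for the 7 tested genes in 4 comparisons; error bars are SE, and filled points passed an adjusted p of 0.05. EGR1 lies near 2 with palbociclib and the combination against DMSO, and all points of the combination against palbociclib are open.

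The combination was also compared with palbociclib alone. None of the 7 tested genes passed, and 0.0241% of all tested genes did, which is 3 genes against 2067 at an unadjusted p under 0.05. On the recovered reads limma-voom called 289 genes. EGR1 was at −0.19 ± 0.14 (log2, adjusted p = 0.517) and FOS at −0.13 ± 0.08 (adjusted p = 0.494), and both FOS libraries of the combination lay below both of palbociclib. A p above the threshold does not show that the levels were equal. The departure from additivity asks whether adding olaparib changes a gene by the same amount with and without palbociclib. It passed for 0 of the 7 genes and for 0.00804% of all tested genes. FOS had −0.25 ± 0.12 (adjusted p = 0.501) and IER2 0.20 ± 0.07 (adjusted p = 0.452).

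The order of the 10 genes by level, which FPKM allows because it is per length, was JUNB, EGR1, IER2, IER3, FOS, FOSB, FOSL1, EGR3, EGR2 and JUN with DMSO. EGR1 and IER2 overlapped there, as did FOSL1 and EGR3. With palbociclib EGR1 stood first at 66.4 ± 5.62 FPKM (SD, n = 2), ahead of JUNB at 53.6 ± 0.85, and FOS stood above IER3. With the combination EGR1 and JUNB overlapped. The genes were also alike in structure: 90% had a gene span under 10000 bases, against 19.1% of the 10175 tested protein-coding genes, and the median span was 4160 against 31619 bases. EGR2 was the exception, at 107905 bases.

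Genes with the pattern most like that of EGR1, by Pearson correlation of log2(FPKM + 1) over the 8 libraries, were EGR3 (r = 0.998), HOXC10 (r = 0.998) and CYR61 (r = 0.997). The 8 points share 4 treatment groups, so such values describe the group pattern and carry no test. HOXC10, a homeobox factor, stood at 25.3 FPKM with DMSO and 39.6 under palbociclib, and CYR61, a matricellular immediate early protein, at 39.0 and 79.5. For FOSL1 the nearest were GINM1 (r = 0.930), ZNF514 (r = 0.919) and TMEM88B (r = 0.909), and for JUN, which rests on few reads, MAP4K2 (r = 0.895), AC007391.1 (r = 0.889) and MBOAT1 (r = 0.885).

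Other immediate early genes were examined as a list of 36, chosen like the lists after it with earlier results of these data known. The lists share JUND, FOSL2, ATF3 and MAFF. With palbociclib 17 of 28 tested were called higher and 1 lower, where 18.7% and 31.4% of all tested genes were, with a median log2 fold change of 0.36 against −0.048 over all tested genes. With no filter, 16 of 36 were called higher and 0 lower, where 6.63% and 10.5% of all genes were. CYR61 rose by 1.01 ± 0.05 (log2, adjusted p = 4.16e-05), RHOB, a small GTPase, by 0.91 ± 0.08 and KLF2, a zinc finger factor, by 0.84 ± 0.11. ZFP36L2, an RNA-binding protein, was at −0.21 ± 0.06 (adjusted p = 0.0212), a call lost without DMSO 1 at −0.22, DMSO 2 at −0.20 or palbociclib 1 at −0.17. It was also lost with quantile normalisation at −0.046 (adjusted p = 0.462), with TPM scaling at −0.11 (adjusted p = 0.12) and with no filter (adjusted p = 0.0641). Without olaparib 1 or 2 or combination 1 or 2, the count of lower genes was 2. With the combination 13 of 28 were called higher and 1 lower, where 21.5% and 35.3% of all tested genes were, with a median of 0.19 against −0.062. There BTG2, an antiproliferative p53 target, rose by 1.30 ± 0.06, CYR61 by 0.93 ± 0.05 and RHOB by 0.90 ± 0.08, and ZFP36L2 fell by 0.39 ± 0.06, or by 0.16 with quantile normalisation (adjusted p = 0.0224). Without combination 2, 3 genes of the list were lower with the combination. Several standard early genes did not pass under palbociclib: DUSP1 had 3.76 and 3.81 FPKM with DMSO and 3.72 and 3.54 under palbociclib, and NR4A1 had 4.04 and 3.55 against 4.55 and 3.85.

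With olaparib 2 of 28 were called higher and 2 lower, near the 4.13% and 10.5% of all tested genes. BTG2 stood at 8.63 and 8.90 FPKM with DMSO and at 19.8 and 21.6 with olaparib, a rise of 1.15 ± 0.06 (log2, adjusted p = 0.00175), whereas none of the 10 genes was called higher there. The others were IER5 at 0.27 ± 0.07 (adjusted p = 0.0413), the phosphatase gene DUSP2 at −0.40 ± 0.07 (adjusted p = 0.016) and the survival gene MCL1 at −0.14 ± 0.04 (adjusted p = 0.0462). Without DMSO 1, DMSO 2, olaparib 1 or olaparib 2, each of these 3 calls was lost, with IER5 at 0.24, 0.30, 0.35 and 0.19, DUSP2 at −0.35, −0.45, −0.32 and −0.49, and MCL1 at −0.12, −0.15, −0.12 and −0.16. IER5 and MCL1 were also lost without palbociclib 1 or 2, at 0.27 and −0.14. The MCL1 call held in 6 of 18 alternative settings, and its value was −0.038 with quantile normalisation (adjusted p = 0.584) and −0.074 with TPM scaling (adjusted p = 0.217).

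**Figure D4:**
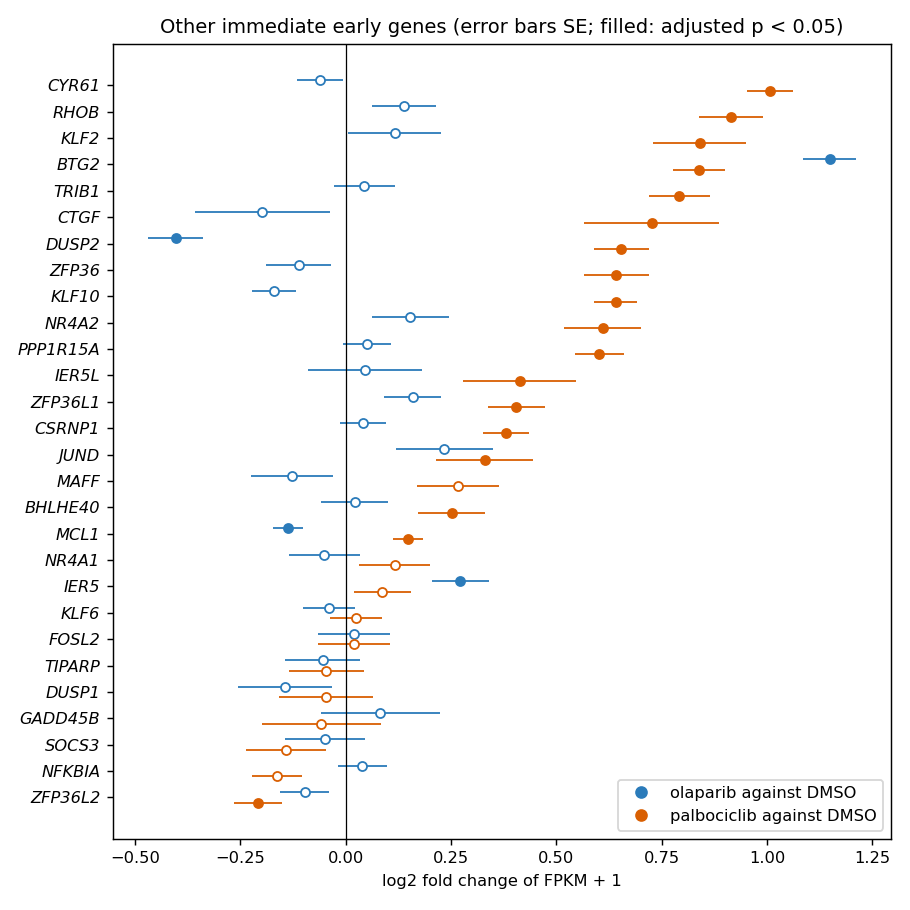
Log2 fold change of FPKM + 1 with olaparib and with palbociclib against DMSO for the 28 tested genes of the list of other immediate early genes; bars are SE and filled points passed an adjusted p of 0.05. With palbociclib 17 filled points lie right of 0 and 1 left of it, and BTG2 has the highest olaparib point, at 1.15.

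Genes that report ERK signalling by feedback were higher with palbociclib in 6 of 11 tested and lower in 1, where 18.7% and 31.4% of all tested genes were, with a median of 0.15. SPRY4, an inhibitor of the pathway, rose by 0.75 ± 0.05 (log2, adjusted p = 7.48e-05), the ERK phosphatase gene DUSP6 by 0.67 ± 0.07 and SPRED3 by 0.51 ± 0.07, while DUSP7 fell by 0.37 ± 0.04. With the combination 6 were higher and 2 lower, against 21.5% and 35.3% of all tested genes, with SPRED3 at 0.64 ± 0.07, SPRY4 at 0.56 ± 0.05, DUSP6 at 0.51 ± 0.07 and DUSP7 at −0.55 ± 0.04. The other lower gene, ETV4, was at −0.17 ± 0.04 (adjusted p = 0.0124), which turned to 0.048 with quantile normalisation, was −0.032 with TPM scaling (adjusted p = 0.501) and was lost without DMSO 1 at −0.14 or combination 1 at −0.13. With olaparib alone 1 of 11 was called higher and 2 lower, where 4.13% and 10.5% of all tested genes were. SPRY4 was at −0.28 ± 0.05 (adjusted p = 0.02) and DUSP6 at −0.32 ± 0.07 (adjusted p = 0.0268), and SPRED3 was at 0.29 ± 0.07 (adjusted p = 0.0421). These 3 calls were lost without DMSO 1, DMSO 2, olaparib 1 or olaparib 2, with SPRY4 at −0.21, −0.35, −0.28 and −0.28, DUSP6 at −0.27, −0.37, −0.30 and −0.34, and SPRED3 at 0.26, 0.33, 0.30 and 0.28. SPRED3 was also lost at 0.29 without any 1 of the other 4 libraries. With quantile normalisation all 3 calls were lost, with SPRY4 at −0.21, DUSP6 at −0.25 and SPRED3 at 0.25, and with TPM scaling DUSP6 was lost at −0.27.

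Of the kinases and factors that act upstream of these promoters, 1 of 22 tested was higher with palbociclib and 8 were lower, with a median of −0.11, where 18.7% of all tested genes were higher and 31.4% lower. With the combination 1 was higher and 9 lower, where 21.5% of all tested genes were higher and 35.3% lower. The count of 1 higher was 3 with palbociclib and 5 with the combination under quantile normalisation, and 2 and 4 under TPM scaling. With palbociclib the CREB relative ATF1 fell by 0.35 ± 0.04 (log2, adjusted p = 0.000522), the kinase genes MAP2K1 by 0.32 ± 0.05 and RPS6KA3 by 0.31 ± 0.04. The ETS factor ELK1 was at 0.33 ± 0.07 (adjusted p = 0.00793), lost without DMSO 1 at 0.29. With the combination ATF1 fell by 0.47 ± 0.04, RPS6KA3 by 0.43 ± 0.04 and ELK4 by 0.41 ± 0.05, and ELK1 rose by 0.32 ± 0.07. With olaparib 3 of 22 were lower, near the 10.5% of all tested genes: ATF1 at −0.30 ± 0.04, RPS6KA3 at −0.20 ± 0.04 and MAPK9 at −0.16 ± 0.04. Each was lost without DMSO 1, DMSO 2, olaparib 1 or olaparib 2, with ATF1 at −0.27, −0.33, −0.30 and −0.30, RPS6KA3 at −0.18, −0.22, −0.23 and −0.17, and MAPK9 at −0.16, −0.17, −0.19 and −0.14. MAPK9 was also lost at −0.16 without palbociclib 1 or 2. With quantile normalisation RPS6KA3 was lost at −0.16 and MAPK9 at −0.14, and with TPM scaling at −0.15 and −0.12.

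AP-1 partners and EGR corepressors were called higher with palbociclib in 3 of 10 tested, which were NAB2, JUND and BATF2, and lower in 1, where 18.7% of all tested genes were higher and 31.4% lower, with a median of 0.10. NAB2, a corepressor that EGR factors themselves induce, rose by 0.34 ± 0.07 (log2, adjusted p = 0.0051). BATF2 was at 0.30 ± 0.07 and MAFG at −0.21 ± 0.05. BATF2 was lost without DMSO 2 at 0.26 or palbociclib 2 at 0.27, and MAFG without DMSO 1 at −0.20, DMSO 2 at −0.22 or palbociclib 1 at −0.15. MAFG was also lost with quantile normalisation at −0.11 (adjusted p = 0.177) and with TPM scaling at −0.12 (adjusted p = 0.121), so that none of the list was lower. Without DMSO 2 or palbociclib 2 the count of 3 higher fell to 1, and with TPM scaling it was 5. With the combination 3 were higher and 2 lower, against 21.5% and 35.3% of all tested genes. The 3 higher became 1 without DMSO 1 and 5 with TPM scaling. The 2 lower became 1 without DMSO 1, DMSO 2, palbociclib 1, palbociclib 2 or combination 1, and 0 with quantile normalisation or TPM scaling. With olaparib 1 of 10 was higher, where 4.13% of all tested genes were, BATF2 at 0.34 ± 0.07 (adjusted p = 0.0237), lost without DMSO 1 at 0.38, DMSO 2 at 0.30, olaparib 1 at 0.39 or olaparib 2 at 0.30.

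Of 21 textbook target genes of AP-1 and EGR factors found in the table, 9 were tested. With palbociclib 3 were higher, where 18.7% of all tested genes were, with a median of 0.20 over the 9. With no filter 3 of 21 were higher and 0 lower, where 6.63% and 10.5% of all genes were. TIMP1, a protease inhibitor, rose by 1.17 ± 0.04 (log2, adjusted p = 2.5e-05), CCND1, the cyclin D1 partner of CDK4 and CDK6, by 0.52 ± 0.04 and HMOX1, a haem oxygenase, by 0.32 ± 0.07. HMOX1 was lost without DMSO 2, at 0.30. VEGFA, a growth factor of blood vessels, was lower at −0.18 ± 0.05 (adjusted p = 0.0223), a call lost without DMSO 1 at −0.16, DMSO 2 at −0.19, palbociclib 1 at −0.17 or palbociclib 2 at −0.18. It was also lost with TPM scaling at −0.11 (adjusted p = 0.151) and with no filter (adjusted p = 0.0538). With the combination TIMP1 at 1.03 ± 0.04 and CCND1 at 0.43 ± 0.04 were higher and 2 genes were lower, against 21.5% and 35.3% of all tested genes. The 2 higher became 5 with TPM scaling, and the 2 lower became 1 with TPM scaling and without DMSO 1 or combination 1. With olaparib 0 of 9 passed in either direction.

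Heat shock genes, which like immediate early genes respond to the handling of cells, were counted beside these results. With palbociclib 0 of 8 tested were higher and 7 lower, with a median of −0.43, and with the combination 0 higher and 7 lower, with a median of −0.55. Of all tested genes, 31.4% were lower with palbociclib and 35.3% with the combination. HSP90AA1 fell by 0.69 ± 0.05 (log2, adjusted p = 6.5e-05), HSPA8 by 0.60 ± 0.05 and HSPH1 by 0.52 ± 0.04 with palbociclib. With olaparib 4 were lower, where 10.5% of all tested genes were, and 1 was with quantile normalisation, 0 without DMSO 1, DMSO 2 or olaparib 2 and 2 without olaparib 1. The part of handling in the levels of the 10 genes was not tested.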

How the data were processed

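RNA was measured in 8 A2780 libraries, 2 for each of 4 treatments. The NEBNext Ultra kit was used, per the labels' protocols. CASAVA 1.8, STAR 2.5.1b and HTSeq 0.6.0 are named, with the builds GRCh38 and hg38, per the submitters' processing notes, without a role or an order. The authors deposited FPKM for 31721 genes. Their library scaling matched median-of-ratios size factors of reads recovered from the values. With GENCODE v29 exon lengths, 28635 genes (90.3%) came out as whole reads (tolerance 0.01 reads) in each library. The remaining 3086 needed a searched length, so their whole reads check nothing.

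log2(FPKM + 1) was tested in limma 3.58.1 (R 4.3.3) with trend, in 1 fit of the 8 libraries leaving 4 residual degrees of freedom plus 3.01 from the prior. The test covered 12443 genes whose mean reached 1 FPKM and left out 19278. There were 6 comparisons: olaparib, palbociclib and the combination against DMSO, the combination against olaparib and against palbociclib, and the departure from additivity. Tests were two-sided, with Benjamini-Hochberg adjustment within a comparison and a threshold of 0.05. The limma fit was tried on simulated data with changes planted in the palbociclib group, and the other steps had no such test.

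The 10 genes and the lists were chosen with earlier results of these data known. From each list, up to 3 genes with the highest and up to 3 with the lowest log2 fold change past the threshold could be named for each treatment, and for EGR1, FOSL1 and JUN the 3 genes most correlated with each. A result that this rule would name is not reported here. DUSP1, NR4A1, FOSL2, HOOK2, ERCC1 and IER3-AS1 were added outside that rule, after their values were seen. Alternatives were another pseudocount, other filters, quantile and TPM scaling, limma-voom on recovered reads, no trend, a replicate block, fewer groups and leaving out each library. Errors are SE for fold changes and SD for levels.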

Additional observations from a re-analysis of the deposited data

How the results depend on the processing

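The rises of EGR1, EGR3, FOS, FOSB and JUNB under palbociclib and the combination passed in every alternative run. The cause of the differences below was not tested.

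Of all tested genes, olaparib against DMSO called 1821, and 601 with no filter, 1041 with a mean FPKM of at least 0.1, 1000 with quantile normalisation and 3180 with limma-voom on recovered reads. The combination against palbociclib called 3, and 23 with no filter, 0 at 0.1 FPKM, 17 with quantile normalisation, 12 with TPM, 289 with limma-voom, 169 with limma-voom and no filter, which was chosen after seeing the data, and 0 without trend. Departure from additivity called 1, and 33 with no filter, 3 at 0.1 FPKM, 50 with limma-voom, 53 with limma-voom and no filter, and 0 without trend or with the replicate block. Calls in the higher direction were 28.2% of all calls for olaparib against DMSO, 60.2% with quantile normalisation and 66.5% with TPM. They were 37.3%, 46.5% and 56.1% for palbociclib, 37.8%, 46.9% and 57.4% for the combination against DMSO, and 38.2%, 48.1% and 53.9% for the combination against olaparib.

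Of the 10 genes, the 1 lower call with olaparib, IER2, became 0 with no filter, at 0.1 FPKM, with quantile normalisation, TPM, limma-voom and no filter, without trend, and with only the groups compared. The 1 lower call of the combination against olaparib, IER3, became 0 with no filter, at 0.1 FPKM, with TPM, limma-voom and no filter, and only the groups compared. There IER2 passed as higher with quantile normalisation (0.20, adjusted p = 0.0118) and with TPM (0.21, adjusted p = 0.0129). Values that turned sign, none of them past the threshold, were FOSB with olaparib (0.044 with TPM), JUNB with olaparib (0.022 with quantile normalisation, 0.012 with TPM), IER2 with palbociclib (0.021 and 0.029) and with the combination (0.045 and 0.056), IER2 between the combination and palbociclib (0.024 and 0.027), and IER3 with palbociclib (0.052 with TPM). ETV4, which was at −0.17 with the combination against DMSO and passed, was at 0.048 with quantile normalisation.

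Leaving out 1 library leaves a group with 1, which is then assumed to vary like the others. Genes called then ran from 13 (without DMSO 1) to 1956 for olaparib, 4443 to 6345 for palbociclib, 5578 to 7041 for the combination, 4080 to 5192 for the combination against olaparib, 0 to 2 against palbociclib and 0 to 2 for additivity. Without DMSO 2, olaparib 1 or olaparib 2 the olaparib count was 28, 268 or 33. Lower calls among the 10 ran from 0 to 1 in the comparisons with olaparib, of the combination with DMSO and of the combination with olaparib. Ranges of values that turned sign were −0.31 to 0.016 for EGR1, −0.066 to 0.056 for FOSB and −0.15 to 0.048 for JUNB with olaparib, and −0.12 to 0.045 for IER3 with palbociclib. Between the combination and palbociclib they were −0.14 to 0.046 for EGR3, −0.17 to 0.023 for JUNB and −0.041 to 0.023 for IER2. For additivity they were −0.21 to 0.12 for EGR1, −0.085 to 0.10 for EGR3, −0.11 to 0.0070 for FOSB and −0.12 to 0.074 for JUNB.

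Replicate numbers did not pair the libraries: same-numbered libraries had correlations of deviations of −0.047 to 0.034. With the replicate block 2112 genes were called for olaparib, 6394 for palbociclib, 7235 for the combination, 5696 for the combination against olaparib and 3 against palbociclib, and IER3 passed as the 1 lower of the 10 genes with the combination (−0.24, adjusted p = 0.032). EGR2, FOSL1 and JUN rested on 2 to 47 reads per library.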
